A study of Mus musculus with 12 samples.

Results

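The 5 genes described here, *Cd36*, *Lpl*, *Hadhb*, *Ldhb* and *Pde4dip*, were taken by symbol from a table of transcript abundance in the mouse heart, and each of their transcripts was followed separately. They hold 33 of the table's 105129 transcript rows, and 5 of its 33641 gene symbols. They were chosen by measured values, the shares that their transcripts took of the gene in the 3 libraries from infarcted, prednisone-treated hearts against the other 9 libraries, so every value of the 5 genes in those 3 libraries is given as a description, without a test. The 5 genes were tested only between groups among the other 9, and other genes of their pathways in all 4 groups. The genes are called metabolic, and 4 of the 5 fit that word by their known function, whereas *Pde4dip* encodes a scaffold protein and no enzyme of energy metabolism.

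RNA came from the myocardium of male C57BL/6 wild-type mice, about 10 weeks old in the treatment protocol and about 16 weeks old in the sample labels. The 4 groups, of 3 mice each, were sham surgery with vehicle, sham surgery with prednisone, myocardial infarction (MI) with vehicle, and MI with prednisone, a synthetic glucocorticoid. From 2 weeks after surgery, injections were given into the abdominal cavity once weekly for 6 weeks, prednisone at 1 mg/kg in saline from a DMSO stock at lights-on, with collection of the heart 24 hours after the final dose. All 12 mice therefore had an operation and the injection schedule in common, and no group was left unoperated. The labels do not say whether the tissue was taken from the scar, its border or remote muscle. No library batch is named, and a batch effect running along the groups cannot be told apart from them. Whether the 3 mice of a group shared a cage or litter is not given either.

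Values are TPM, a transcript's length-corrected abundance scaled to a fixed sum per library, which give each transcript's part of its library and hold no read depth. The share of a transcript is its TPM as a percent of the summed TPM of its gene, so it does not depend on how libraries are scaled against each other. Between 11690 and 14307 genes reached 1 TPM in a library, and mitochondrially encoded RNA took from 21.6% to 42.0% of the TPM. It took 24.6, 21.6 and 35.9% in MI prednisone replicates 1, 2 and 3. In MI vehicle replicate 3 it took 23.1%, and in the remaining libraries 32.4% to 42.0%. MI vehicle replicate 3 stood apart with the most genes and with a median-ratio scaling factor of 1.68, against 0.857 to 1.13 in the other 11 libraries. Cardiomyocyte markers summed to between 20924 and 25958 TPM in the MI vehicle libraries, below the libraries of the 3 other groups at 29257 to 34966 TPM. Its members differed in direction: the means of *Myh6*, *Tnnt2*, *Tnni3* and *Myl2* were lowest in MI vehicle. Those of *Actc1* and *Ryr2* were lowest in MI prednisone, at 4474 and 30.2 TPM against 5222 and 42.9 TPM in MI vehicle. Of 6 skeletal muscle markers, the fast myosins *Myh4* and *Myh2* stayed below 1 TPM in every group mean. The fast troponins *Tnnt3* and *Tnni2* were highest in sham vehicle, at 3.55 and 5.00 TPM. *Acta1* was at 482 TPM in MI vehicle and 403 TPM in MI prednisone, against 118 TPM in sham vehicle and 122 TPM in sham prednisone. *Ckm* ranged from 1171 to 1645 TPM over the group means.

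The heart draws most of its energy from fatty acids and can also burn lactate. Lipoprotein lipase, encoded by *Lpl*, frees fatty acids from circulating triglyceride at the capillary wall. CD36, encoded by *Cd36*, carries them across the cell membrane. *Hadhb* encodes the beta subunit of the mitochondrial trifunctional protein, whose thiolase activity cuts the fatty acid chain in beta-oxidation. *Ldhb* encodes the heart-type subunit of lactate dehydrogenase, which interconverts lactate and pyruvate. *Pde4dip* encodes myomegalin, a large scaffold protein of the centrosome, the Golgi and the sarcomere that anchors a cAMP phosphodiesterase and protein kinase A. Genes such as these are annotated with full-length coding transcripts and with shorter models that cover only some of the exons, and a program that divides reads among transcripts can tell such models apart only where their sequence differs.

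The sequences that tell the moving transcripts from the main ones are few, and they are shown because the shares below depend on them. Each run holds 15 bases on either side of an exon edge, read 5′ to 3′ along the transcript from GENCODE M21 (GRCm38), and the capitals mark the side on which the pair differ. In *Cd36*, on the minus strand of chromosome 5, both transcripts leave the exon ending at 17888711, and Cd36-205 enters the exon at 17829549 while Cd36-203 enters at 17835671.
Cd36-205: ctgttctagaagttgGTAGTTTACAAATGA
Cd36-203: ctgttctagaagttgCTGCCTTCTGAAATG
In *Lpl*, on the plus strand of chromosome 8, Lpl-203 splices from 68904567 to a last exon at 68907233, beyond the end of Lpl-201, which reads on through the same position.
Lpl-203: acagaagaaaacaaaATGGGACACCGCATC
Lpl-201: acagaagaaaacaaaGTAAATTTAATTTAA
In *Hadhb*, on the plus strand of chromosome 5, Hadhb-208 begins with 83 bases of intron before the exon at 30180315, to which Hadhb-201 splices from 30179639.
Hadhb-208: AATTATTCCCTCTAGggccagattttagct
Hadhb-201: CATGAAGCCTTCTCAggccagattttagct
In *Ldhb*, on the minus strand of chromosome 6, Ldhb-202 skips from 142495568 to 142490604, past exons that Ldhb-201 enters at 142494217.
Ldhb-202: atggagactccagtgGGAATGTACGGCATT
Ldhb-201: atggagactccagtgTGGCTGTGTGGAGCG
In *Pde4dip*, on the minus strand of chromosome 3, Pde4dip-208 splices out from 97694935, inside an exon of Pde4dip-202, to 97690154.
Pde4dip-208: actgtctctcatgagTTGAACCGACTTCCT
Pde4dip-202: actgtctctcatgagGTCAGCACGCAGCAT
At the other end of *Pde4dip*, Pde4dip-209 begins with 296 bases of intron before the exon at 97824325, to which Pde4dip-202 splices from 97841634.
Pde4dip-209: CGCACTCTGTCCCAGcacctcaatgacttg
Pde4dip-202: CGAGACTTTGAGAAGcacctcaatgacttg

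Except for Pde4dip-209, most of each short transcript is shared with other transcripts of its gene. Of the stretches of 30 bases in Ldhb-202, 28 of 408 were found in no other transcript of the same gene, and in Pde4dip-208 it was 27 of 385. Hadhb-208 had 83 such stretches of 478, Cd36-205 had 82 of 673, Lpl-203 had 216 of 1871 and Pde4dip-209 had 294 of 455. Reads from 2 of the genes can also be shared with near-identical copies elsewhere in the genome. The copies *Gm13910* and *Gm9108* hold 66.2% of the 30-base stretches of Hadhb-201, and *Gm5514* holds 42.3% of those of Ldhb-201. For the short Hadhb-208 the share was 51.7%, and for Ldhb-202 it was 18.1%, so the *Hadhb* and *Ldhb* values are uncertain to that extent. *Gm13910* stood at 0.807 to 1.41 TPM in the MI prednisone libraries and at 2.66 to 6.31 TPM in the other 9, small amounts beside *Hadhb* itself.

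Of the 33 transcripts, 28 reached 1 TPM in at least 3 of the 12 libraries, none of them only through the MI prednisone group. By mean share over all 12 libraries, 20 made up at least 1% of their gene. Hadhb-207, Hadhb-208, Ldhb-202 and Pde4dip-208 are among the 20 only through MI prednisone. Their mean shares in the other 9 were 0.843, 0.620, 0.434 and 0.457%. They count in the numbers below, and the same limit was applied to the transcripts of all genes. Of these 20, 6 took a larger share in all 3 MI prednisone libraries than in any of the other 9, and 11 a smaller one. Over all 23565 transcripts measured this way, 10.1% lay above and 10.2% below. Since this contrast chose the genes, nothing is read from the difference. In each gene 1 transcript was furthest up and 1 furthest down, and these 10 are followed below. In 9 of the 10 the 3 libraries lay outside the range of the other 9, and in 7 of the 10 MI prednisone replicate 3 was the nearest to that range.

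**Figure D1:**
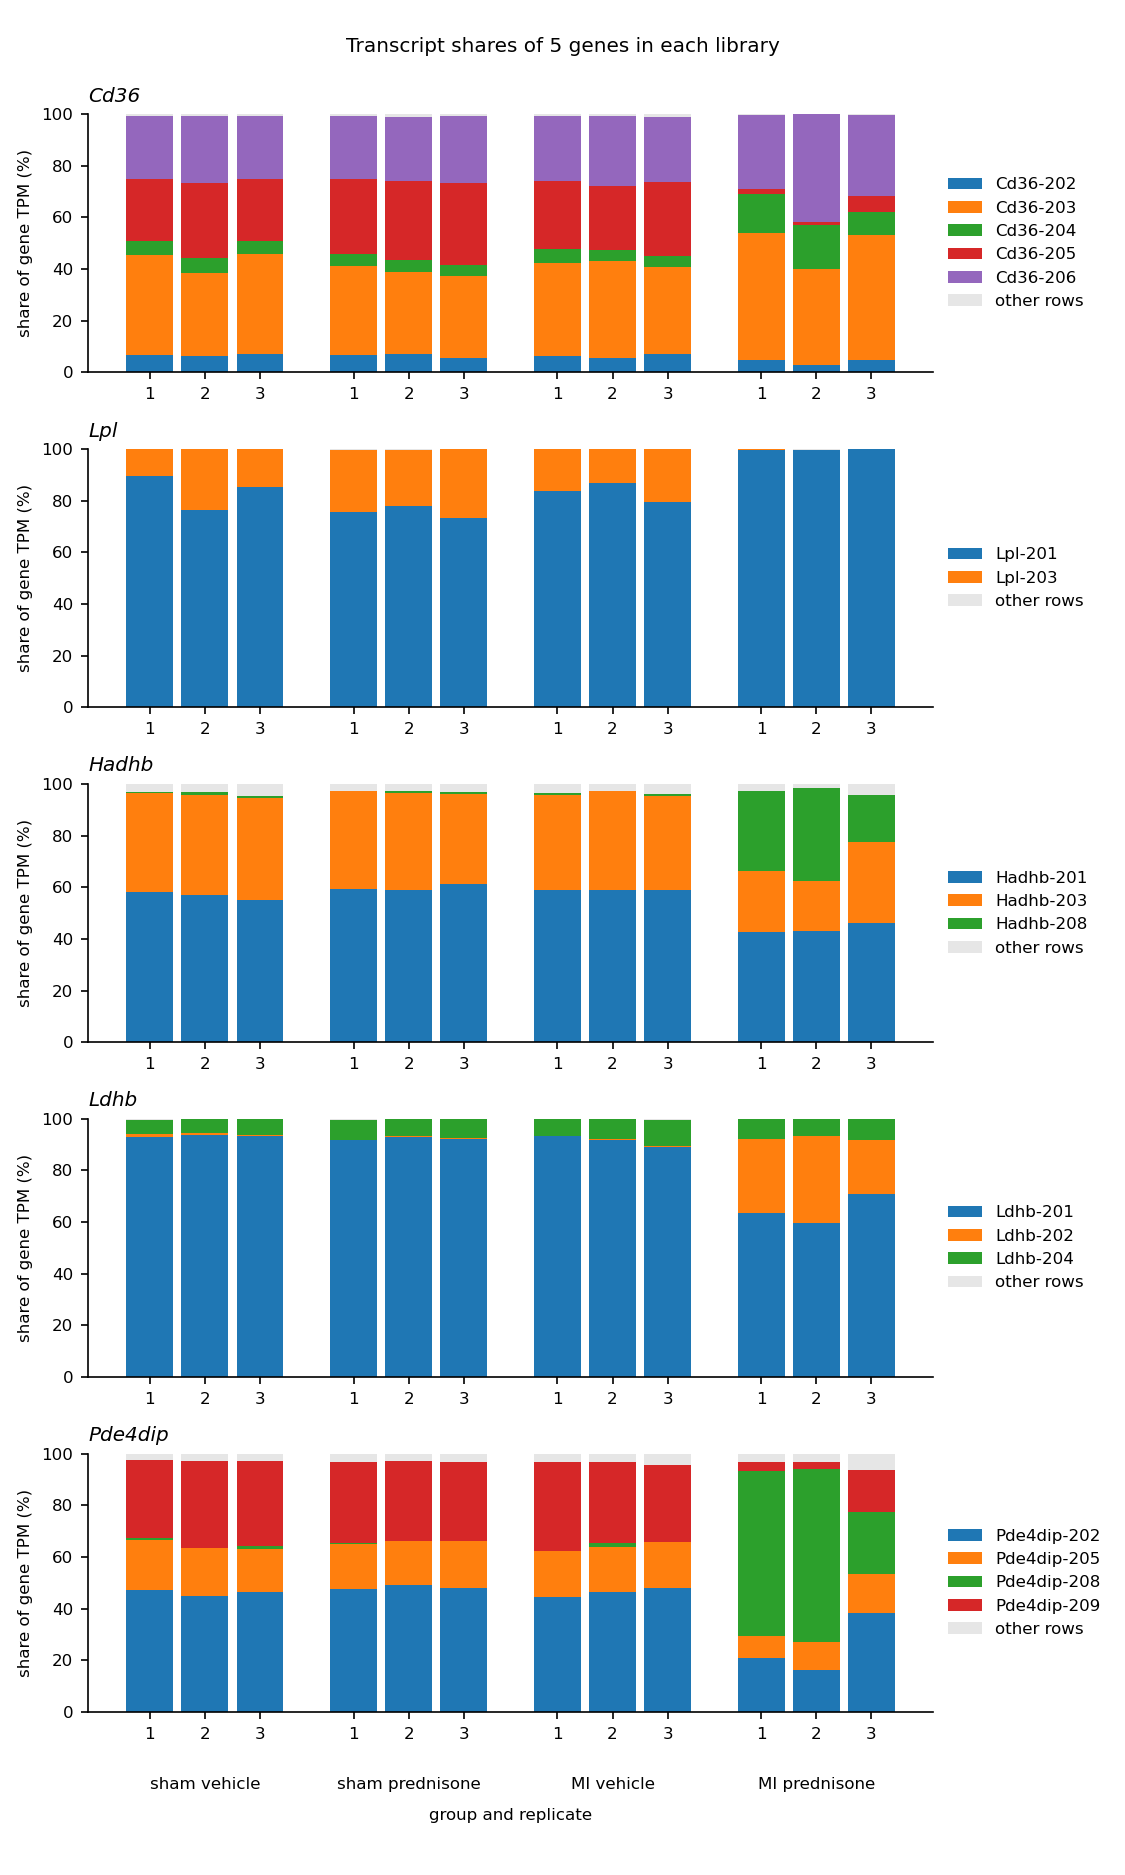
Stacked bars give each transcript's share of its gene's TPM (percent, vertical axis) in the 12 libraries (horizontal axis, 3 replicates in each of 4 groups) for transcripts that averaged at least 5% in some group, with all other rows in grey. The first 9 bars look alike in the panels other than *Lpl*, where Lpl-203 runs from 10.4 to 26.7%. In the last 3 bars the *Pde4dip* bar is filled up to 67.2% by Pde4dip-208, Lpl-203 is absent to the eye, and replicate 3 lies closest to the earlier bars in most panels.

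In *Lpl*, 1 of the 2 main transcripts was nearly absent from the MI prednisone libraries. Lpl-201 (chr8:68880491-68906934, 10 exons, 4115 bases) is the full-length coding form. Lpl-203 (chr8:68880555-68907448, 11 exons, 1900 bases) carries the same coding length of 1422 bases, has a shorter 3′ untranslated part joined to a distant last exon, and is annotated as a target of nonsense-mediated decay, the pathway that degrades messages with a premature or misplaced stop. Lpl-203 stood at 0.375, 0.143 and 0.299 TPM in the 3 MI prednisone libraries. In the MI vehicle libraries it stood at 157, 144 and 189 TPM, in sham prednisone at 289, 273 and 346 TPM, and in sham vehicle at 104, 261 and 169 TPM. All 3 MI prednisone values were thus below 1 TPM and the other 9 were all above 100 TPM.

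The share of Lpl-203 was 0.0336% ± 0.0134 (SD, n = 3) in MI prednisone and ranged from 10.4 to 26.7% in the other 9, with a median of 20.2%. Lpl-201 made up nearly all of the rest, at 99.8, 99.7 and 99.9% in MI prednisone against 73.2 to 89.5% elsewhere. Its own level overlapped, at 785, 686 and 919.5 TPM in MI prednisone and 742 to 976 TPM in the other 9, with replicate 2 alone below that range. The difference in the *Lpl* total therefore came mostly from the row of the shorter transcript. The other 3 *Lpl* rows, 2 with a retained intron and 1 without a coding sequence, stayed at or below 3.01 TPM in every library.

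The *Lpl* total was 787, 688 and 921 TPM in MI prednisone, below all of the other 9, which lay between 933 and 1296 TPM. Its mean was 71.9% of theirs, whereas Lpl-201 alone was 89.1%. Of all 13158 genes measured, 18.9% lay below and 1.45% above the other 9 in the same way. In bulk tissue, fewer cells of a type and less RNA per cell cannot be told apart. Fat cells express both *Lpl* and *Cd36*, and the summed TPM of 6 adipocyte markers (*Adipoq*, *Plin1*, *Cidec*, *Lep*, *Cfd* and *Retn*, none at 0 throughout a group) ranged from 16.8 to 1560 in MI vehicle, 261 to 869.5 in MI prednisone, 18.9 to 362 in sham vehicle and 139 to 156 in sham prednisone. The sum of 6 endothelial markers ranged from 288 to 402 TPM in MI prednisone and from 219 to 362 TPM in the other 9. Its members differed in direction: the means of *Egfl7* and *Vwf* were highest in MI prednisone (178 and 54.97 TPM), whereas those of *Pecam1*, *Cdh5* and *Kdr* were the lowest of the 4 groups there (46.2, 34.0 and 23.8 TPM). Their part in the *Lpl* values was not tested.

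The *Cd36* gene has 6 transcripts from 3 groups of start sites, and 5 of them encode the same 1416 bases of protein sequence. The remaining one, Cd36-205 (chr5:17814675-17888801, 5 exons, 702 bases), starts at the upstream site and stops early in the coding part, where its annotation is marked as incomplete at the 3′ end. It stood at 4.71, 2.38 and 22.4 TPM in MI prednisone. The values were 149, 141 and 161 TPM in MI vehicle, 195, 201 and 209 TPM in sham prednisone and 141, 194 and 144 TPM in sham vehicle. The lowest of those 9 libraries was thus still several times above the highest MI prednisone library, replicate 3.

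As a share of the gene, Cd36-205 made up 1.78, 1.14 and 6.18% in MI prednisone and 23.8 to 31.7% in the other 9. The transcript furthest up was Cd36-203 (chr5:17782367-17888747, 16 exons, 2677 bases), the full-length form of the same upstream site. Its share was 49.2, 37.4 and 48.2% in MI prednisone against 31.9 to 39% in the other 9, so that replicate 2 lay within their range. In TPM Cd36-203 was lower, not higher, at 130.4, 78.4 and 175 against 189.5 to 235 TPM, and the total of the gene was lower too. Cd36-204, from the middle site, was the only described *Cd36* transcript whose TPM was not below the other 9, at 40.6, 35.6 and 32.5 against 24.1 to 36.6 TPM. Its share was 15.3, 17 and 8.96%, above the other 9 at 4.3 to 5.51%. Cd36-204 has the longest 3′ end of the gene and is 3399 bases long.

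By start site, the upstream pair took 51, 38.5 and 54.4% of *Cd36* in MI prednisone and 61.5 to 63.6% in the other 9. Without Cd36-205, among the 5 full-length coding transcripts only, the upstream site held 50.1, 37.8 and 51.4% in MI prednisone and 45.7 to 51.3% elsewhere, which overlap. The downstream site likewise held 29.5, 42.1 and 33.9% against 32.9 to 38.9% and overlapped. The middle site held 20.4, 20.1 and 14.7% against 13.4 to 16.8%, so that replicates 1 and 2 lay above the range and replicate 3 within it. Among those 5, Cd36-204 remained above the other 9, at 15.6, 17.2 and 9.55% against 5.87 to 7.78%, and Cd36-202, of the same middle site, was below, at 4.83, 2.87 and 5.17% against 7.52 to 10.1%. Cd36-201 was also below but made up no more than 1.46% of them in any library. As shares of the whole gene, the middle site (20.04, 19.8 and 13.8% against 9.8 to 12.4%) and the downstream site (29, 41.6 and 31.8% against 25 to 28%) lay above the other 9.

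The *Cd36* total was 265, 209.8 and 363 TPM in MI prednisone and 560.5 to 671 TPM in the other 9, and its mean was 45.2% of theirs. The full-length transcripts alone summed to 260.4, 207 and 340.3 TPM against 399.9 to 476 TPM, and their mean was 60.3% of the mean of the other 9. *Cd36* was the gene of the 5 with the lowest total relative to the other libraries.

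**Figure D2:**
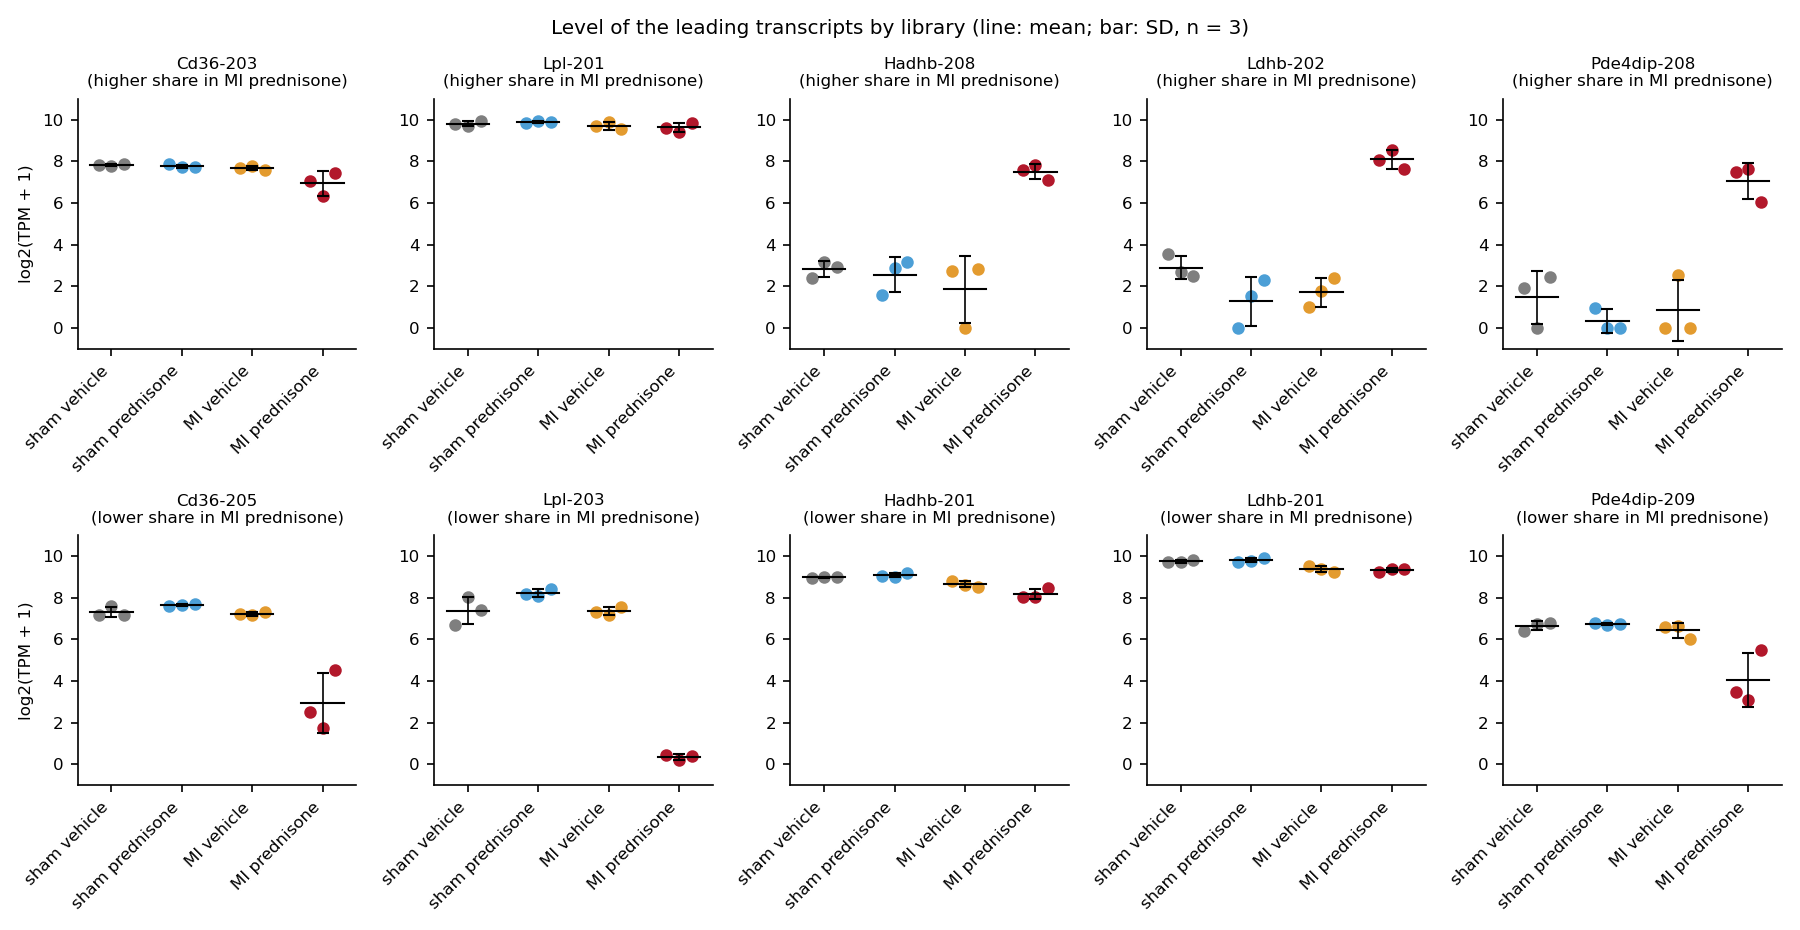
Points give log2(TPM + 1) per library for the transcript furthest up (top row) and furthest down (bottom row) in share in each gene, by group, with the mean and SD (n = 3). Hadhb-208, Ldhb-202 and Pde4dip-208 lie near the bottom in the first 3 groups and well above them in MI prednisone, Lpl-203 shows the reverse, and the full-length forms Lpl-201, Hadhb-201 and Ldhb-201 differ far less.

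In *Hadhb* the transcript furthest up was Hadhb-208 (chr5:30180232-30184236, 3 exons, 507 bases), which has no coding sequence in the annotation and is classed as a retained intron. It was near the bottom of the scale in 9 libraries, at 4.21, 7.91 and 6.69 TPM in sham vehicle, 2, 6.33 and 7.99 TPM in sham prednisone and 5.64, 0 and 6.01 TPM in MI vehicle. In MI prednisone it stood at 190.2, 222 and 137 TPM. Its share there was 30.7, 36.1 and 18%, and no more than 0.960% in any other library.

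The full-length *Hadhb* forms, Hadhb-201 (chr5:30155248-30184593, 16 exons, 2033 bases) and Hadhb-203, both held smaller shares. Hadhb-201 made up 42.7, 43.1 and 46.2% in MI prednisone and 55.2 to 61.1% in the other 9. Hadhb-203 made up 23.6, 19.2 and 31.5% and 35.1 to 39.4%. Relative to each other they overlapped: Hadhb-201 was 63.7, 68.2 and 58.7% of the full-length forms in MI prednisone and 57.4 to 62.4% elsewhere. The remaining full-length form, Hadhb-202, was at or below 1.91% of the gene throughout.

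The *Hadhb* total was 619.6, 616 and 760.2 TPM in MI prednisone and 773, 671 and 626 TPM in MI vehicle, and these overlapped. Its full-length forms, however, summed to 416, 389 and 598 TPM in MI prednisone, below every other library (605.7 to 937 TPM). As a percent of the mean of the other 9, the total stood at 80.4% and the full-length forms at 57.9%. The gene total and the rows of its full-length forms thus differed in whether they overlapped.

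*Ldhb* gave the same picture with 1 full-length transcript. Ldhb-202 (chr6:142490249-142495648, 2 exons, 437 bases) joins an internal exon to the last one, and its annotation lacks the 5′ end and gives a coding part of 95 bases. It stood at 270.1, 374 and 198 TPM in MI prednisone. Elsewhere it stood at 0.989, 2.4 and 4.18 TPM in MI vehicle, 0, 1.91 and 3.88 TPM in sham prednisone and 10.5, 5.4 and 4.62 TPM in sham vehicle. The 3 MI prednisone libraries were all far above the highest of the others, sham vehicle replicate 1.

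The share of Ldhb-202 was 28.5, 33.6 and 20.8% in MI prednisone and at most 1.17% elsewhere. Ldhb-201 (chr6:142490249-142507957, 8 exons, 1304 bases, coding length 1002 bases) was the counterpart, at 63.7, 59.6 and 70.8% against 89 to 93.7%. In TPM, however, Ldhb-201 overlapped, at 603, 662 and 673 TPM in MI prednisone and 594 to 970.3 TPM in the other 9. Ldhb-204, another model with an incomplete 5′ end, reached the last exon too but extends further upstream, and its share overlapped (7.79, 6.69 and 8.17% against 5.5 to 10.02%).

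The *Ldhb* total, 948, 1111 and 950.2 TPM in MI prednisone, was the only one of the 5 with a mean above that of the other 9 (115% of it), and it overlapped them. Ldhb-201 alone stood at 79.9% of the other 9, so the sign of the *Ldhb* difference depended on whether the short row was counted.

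*Pde4dip* held the widest difference in share. Pde4dip-208 (chr3:97689830-97695023, 2 exons, 414 bases) has no coding sequence in the annotation and reaches the 3′ end of the gene. It stood at 178, 195 and 66 TPM in MI prednisone. In the other groups it stood at 0, 4.78 and 0 TPM in MI vehicle, 0.961, 0 and 0 TPM in sham prednisone and 2.81, 0 and 4.45 TPM in sham vehicle, and it was listed at 0 in 5 of these 9 libraries. Its share was 63.7, 67.2 and 24.2% in MI prednisone, with replicate 3 far below the other two, and at most 1.5% elsewhere.

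At the 5′ side of the gene, Pde4dip-209 (chr3:97796732-97824621, 2 exons, 484 bases), a coding model that is incomplete at its 3′ end, made up 3.68, 2.64 and 16.3% in MI prednisone and 29.5 to 34.4% in the other 9. Its level was 10.3, 7.64 and 44.7 TPM against 64.1 to 111 TPM. The full-length forms were Pde4dip-202 (chr3:97689865-97888707, 47 exons, 8376 bases) at 20.7, 16.1 and 38.1% against 44.5 to 49.1%, and Pde4dip-205 at 8.87, 10.9 and 15.1% against 16.7 to 19.2%. Against each other these 2 and the minor full-length Pde4dip-201 overlapped: Pde4dip-202 was 68.6, 58.4 and 71% of the 3 in MI prednisone and 70.3 to 73.7% elsewhere. A further short model near the 3′ end, Pde4dip-207 (536 bases), was at 6.33, 7.02 and 14.1 TPM in MI prednisone and at most 2.16 TPM in the other 9, outside the transcripts chosen for description and named after its values were seen.

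The *Pde4dip* total overlapped, at 279, 289.8 and 273 TPM in MI prednisone, a mean of 90.9% of the other 9. The 3 full-length forms summed to 84.2, 79.6 and 147 TPM against 148 to 232 TPM, a mean of 51.3%, with all 3 libraries below the other 9. The rows of the full-length forms were thus lower in these libraries while the gene total overlapped. These sums rest on how reads were divided among rows, and with shares weighted by length Pde4dip-205 stood at 29.1% in MI prednisone and 25.9% in the other 9, the opposite direction to its unweighted share.

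**Figure D3:**
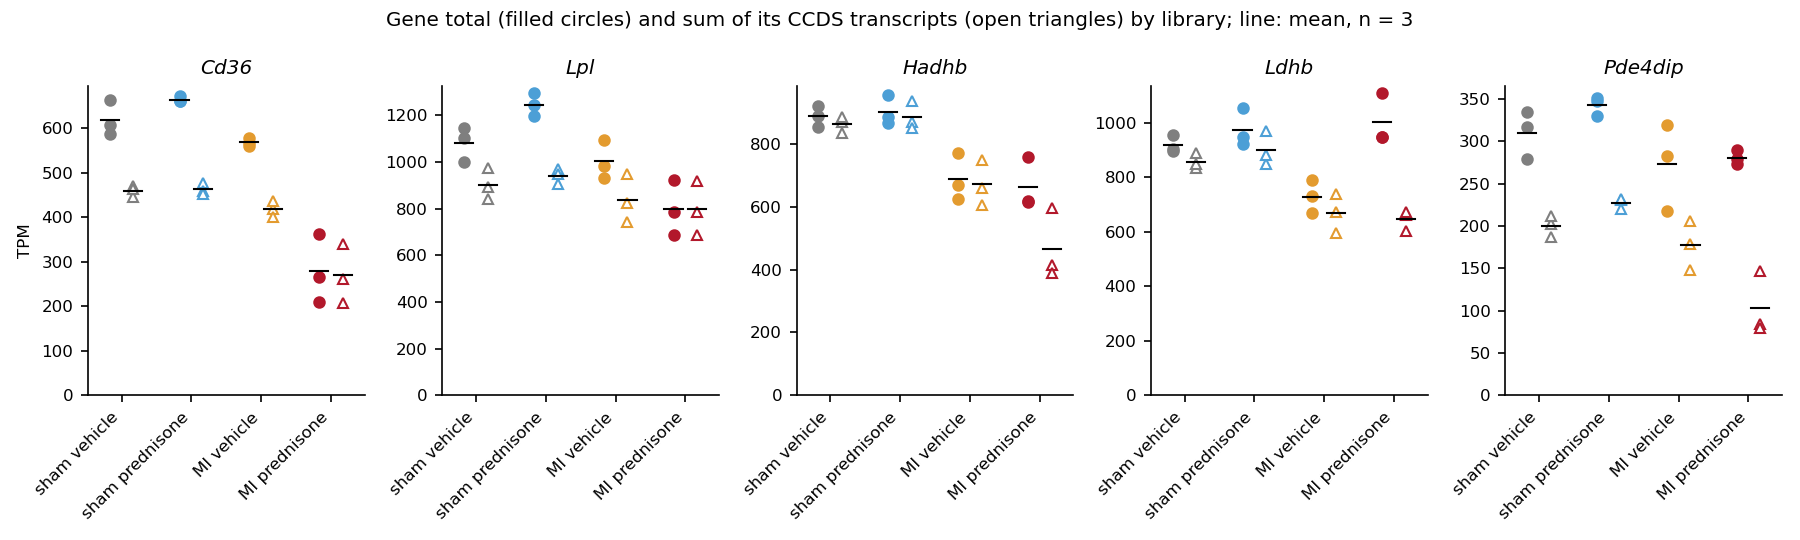
Filled circles give the TPM of each gene and open triangles the sum of its full-length coding transcripts (those in the consensus coding sequence set, CCDS) per library and group, with the mean as a line (n = 3). In MI prednisone the circles and triangles of *Hadhb*, *Ldhb* and *Pde4dip* lie apart, at 69.6%, 64.7% and 37.1% of the gene's TPM, not of its reads, in full-length transcripts. Those of *Cd36* and *Lpl* nearly coincide, at 97.0% and 99.8%.

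Across the 5 genes the difference ran in 2 directions. Full-length transcripts took a larger part of *Cd36* (97.0% ± 2.75 in MI prednisone against 72.5% ± 2.94 in the other 9; SD, n = 3 and 9) and of *Lpl* (99.8% ± 0.0664 against 80.8% ± 5.64). They took a smaller part of *Hadhb* (69.6% ± 8.05 against 97.6% ± 0.811), *Ldhb* (64.7% ± 5.69 against 92.4% ± 1.43) and *Pde4dip* (37.1% ± 14.5 against 65.4% ± 1.73). These are parts of the summed TPM, in which short rows weigh more than in reads. With shares weighted by length, Hadhb-208, Ldhb-202 and Pde4dip-208 held 9.30, 11.9 and 7.42% of their genes in MI prednisone. In *Cd36* the short transcript with the smaller share lies toward the 5′ end of the gene, and in *Hadhb*, *Ldhb* and *Pde4dip* the one with the larger share lies toward the 3′ end.

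Position was therefore measured along the merged exons of each gene, with the 5′ end at 0% and the 3′ end at 100%. The centres of the transcripts that were higher in share lay at 72.7% (Hadhb-208), 79.8% (Ldhb-202) and 95.1% (Pde4dip-208). Those of the short transcripts that were lower lay at 15.5% (Cd36-205), 11.2% (Pde4dip-209) and 29.6% (Lpl-203). The full-length forms had their centres between 42.1% and 53.0%, and for the minor Cd36-201 and Pde4dip-201 no position was measured. Lpl-203 spans nearly the whole gene, and of the short transcripts that were lower it is the one that holds the last exon. Its centre lies toward the 5′ end because it lacks most of the long last exon of Lpl-201.

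**Figure D4:**
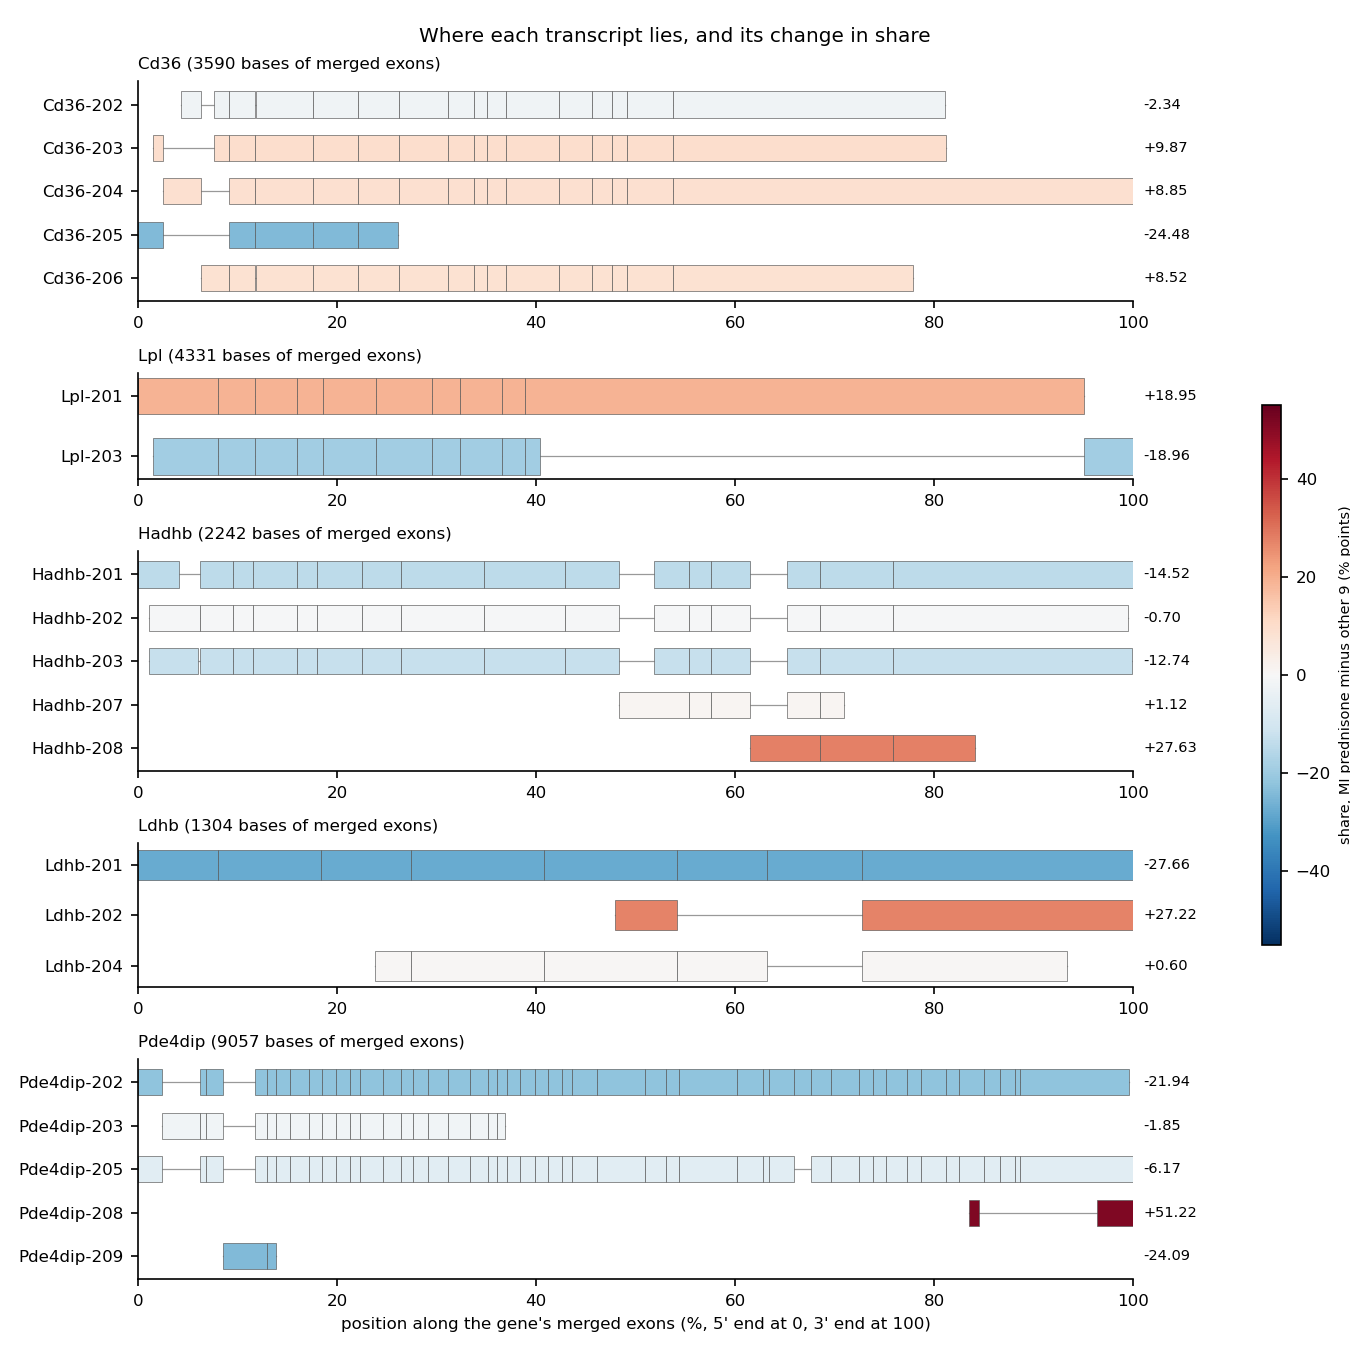
Each row is a transcript and each block an exon, placed along the gene's merged exons (percent, 5′ end at 0), coloured by its share in MI prednisone minus its mean share in the other 9 libraries (percentage points, printed at the right). The red blocks of the short *Hadhb*, *Ldhb* and *Pde4dip* transcripts sit on the right, and the blue blocks of Cd36-205 and Pde4dip-209 sit on the left.

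The centre of each gene's TPM, which is the mean position of its transcripts weighted by their shares, lay nearer the 3′ end in the 3 MI prednisone libraries in all 5 genes. The centre of *Pde4dip* lay at 79.0, 81.1 and 56.4% in replicates 1, 2 and 3 and at 37.8 to 40.3% in the other 9. Relative to the mean of the 12 libraries, *Pde4dip* stood 31.6, 33.7 and 9 percent of its exon length toward the 3′ end in these replicates. *Ldhb* stood 6.38, 7.85 and 4.13 percent, *Hadhb* 5.3, 6.4 and 2.52 percent, and *Cd36* 6.29, 6.42 and 4.44 percent. The 3 values of *Lpl* differed by less than 0.01, from 2.54 to 2.55 percent. In the other 4 genes replicate 3 was the least displaced of the 3.

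The same measure over 4427 genes with 2 or more measured transcripts moved in the same 3 libraries. The median gene stood 1.47, 1.32 and 0.651 percent of its exon length toward the 3′ end in MI prednisone replicates 1, 2 and 3, and from -0.456 to -0.123 percent in the other 9. The share of genes displaced toward the 3′ end was 84.3%, 78.8% and 75.6% in these libraries and 29.2% to 41.5% in the others. Both measures are relative to the mean of the 12 libraries. A displacement of these 3 therefore itself places the other 9 toward the 5′ end. The share-weighted length of the median gene did not separate them, at 99.9% to 100.3% of its mean in every library. The 5 genes thus moved in the direction in which most genes moved in the same libraries, and by more than the median gene. They were chosen for large differences, so their size is not compared further. The part of this displacement in the shares of the 5 genes was not tested.

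**Figure D5:**
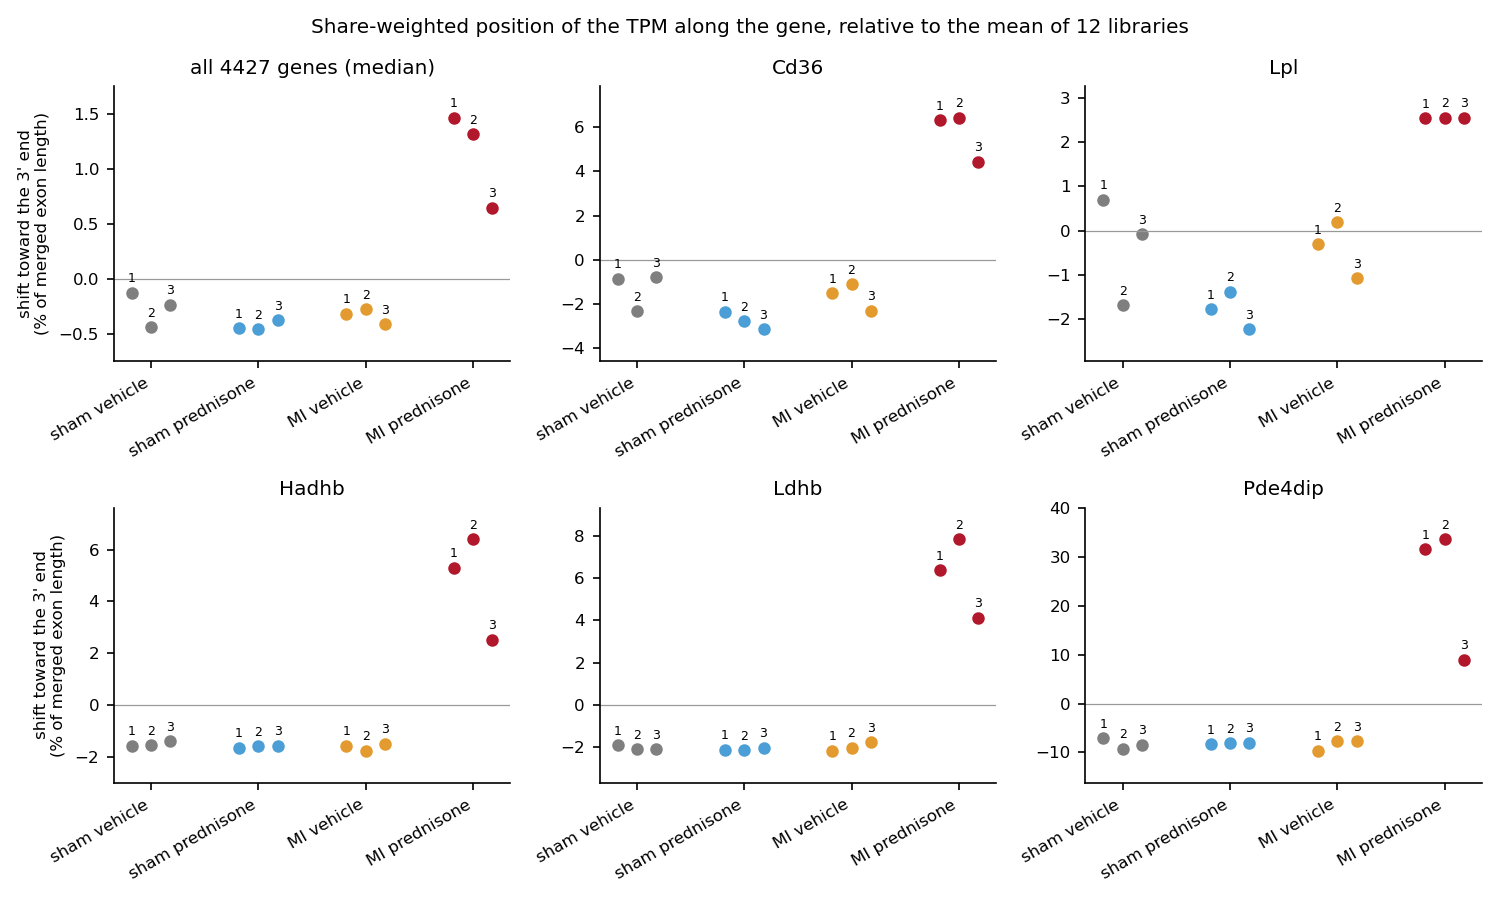
Points give the displacement of the share-weighted position toward the 3′ end (percent of merged exon length, relative to the mean of 12 libraries) per library, numbered by replicate, for the median of 4427 genes and for each of the 5 genes. The 3 MI prednisone points lie above all others in each panel, and replicate 3 is the lowest of them in the median gene, *Cd36*, *Hadhb*, *Ldhb* and *Pde4dip*.

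Classes of transcripts in the rest of the table followed the same order. Of 993 transcripts that were at most 50% as long as their gene's longest and centred in the last 25% of its exons, as Ldhb-202 and Pde4dip-208 are, 36.2% lay above the other 9 libraries in all 3 MI prednisone libraries and 0.806% below. Of 3906 equally short transcripts centred in the first 25%, as Cd36-205 and Pde4dip-209 are, 1.79% lay above and 13.4% below. Among all 20880 transcripts with a position the figures were 10.2% and 10.3%. The annotation's own marks carry no limit on position. Of 1370 transcripts marked as lacking the 5′ end alone, as Ldhb-202 is, 20.1% lay above and 3.36% below. Of 2144 marked as lacking the 3′ end alone, as Cd36-205 and Pde4dip-209 are, 0.979% lay above and 16.8% below. Of 405 marked as lacking both ends 3.21% lay above and 13.6% below, and of 18564 with neither mark 10.6% and 9.84%. Hadhb-208, at 72.7%, and Lpl-203, at 29.6%, were equally short but centred between these 2 ends. Of 5237 such transcripts, 7.62% lay above and 6.68% below, without the lean seen at either end. Of 10744 transcripts over 50% as long as their gene's longest, 12.1% lay above and 11.9% below.

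Because TPM divides by length, a short transcript needs few reads to take a large share. Weighting each transcript by its annotated length, an alternative added after the data were seen, gave shares closer to shares of reads. The difference between MI prednisone and the other 9 then was 7.39 instead of 51.2 percentage points for Pde4dip-208, 11.8 instead of 27.2 for Ldhb-202 and 9.14 instead of 27.6 for Hadhb-208. It was -8.23 instead of -24.5 for Cd36-205 and -9.86 instead of -19 for Lpl-203. For Cd36-203 it was 1.26 instead of 9.87. All kept their sign.

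Among the other 9 libraries no share of the 5 genes was called different by infarction or by prednisone. The 20 shares tested include Hadhb-207, Hadhb-208, Ldhb-202 and Pde4dip-208, which averaged below 1% in these 9 libraries and were measured only through MI prednisone. In MI against sham with vehicle, 0 of the 20 shares passed limma at an adjusted p under 0.05, beside 0.0255% of all 23565, and 0 of the 20 had an unadjusted p under 0.05. The differences lay between -1.97 and 2.32 percentage points. In prednisone against vehicle in sham hearts 0 of 20 passed, beside 0.00% of all, and 2 of the 20 had an unadjusted p under 0.05, against 1508 of the whole table. Both were in *Lpl*, the gene with the widest spread among the 9: Lpl-203 stood at 24.1, 21.9 and 26.7% in sham prednisone and 10.4, 23.6 and 14.7% in sham vehicle. The difference was 8.01 percentage points (SE 3.32, 95% confidence interval 0.627 to 15.4, limma adjusted p = 0.749), and the 2 groups overlapped. No difference in Lpl-203 was called in either direction.

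Some shares nevertheless did not overlap between 2 groups of 3. For MI, 2 of the 20 lay above and 1 below, beside 5.44% and 6.03% of all. They were Ldhb-204, at 6.38, 7.59 and 10.02% in MI vehicle and 5.5, 5.52 and 6.02% in sham vehicle, Hadhb-201, higher, and Hadhb-203, lower. For prednisone in sham hearts 3 lay above (Hadhb-201, Ldhb-204 and Pde4dip-202) and 3 below (Hadhb-203, Ldhb-202 and Cd36-204), beside 5.80% and 6.23% of all. Ldhb-202, measured only through MI prednisone, was near 0 in both groups, at 0, 0.201 and 0.368% in sham prednisone and 1.17, 0.596 and 0.483% in sham vehicle. Hadhb-201 stood at 58.2, 57 and 55.2% with sham surgery and vehicle, 59.4, 59 and 61.1% with sham surgery and prednisone, and 58.8, 59 and 58.9% with MI and vehicle. Both contrasts use the same sham vehicle libraries. Shares within a gene also depend on each other, so Hadhb-201 higher and Hadhb-203 lower are not separate differences.

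The spread in these tests is shared by all 4 groups, so the wide values of MI prednisone widen the intervals: for Pde4dip-208 the interval of the MI difference was -19.8 to 19.2 percentage points around -0.28. Fitting only the 2 groups compared, without that group, gave 0 calls among the 20 shares in both contrasts as well. A choice of genes for their difference from the other 9 may also have favoured genes with a small spread among those 9.

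In transcript levels on the log2(TPM + 1) scale, 0 of 28 transcripts passed limma in either contrast, beside 2.84% of all 27769 for MI and 0.0540% for prednisone in sham hearts. For MI, 5 of the 28 had an unadjusted p under 0.05 (6910 of all), and for prednisone 3 did (1338 of all). The lowest adjusted p for MI was that of Ldhb-201, at 738, 672 and 594 TPM in MI vehicle and 834, 849 and 892 TPM in sham vehicle (log2 difference -0.37, SE 0.10, limma adjusted p = 0.0753). Those groups did not overlap. For prednisone in sham hearts the lowest was that of Lpl-203 (log2 difference 0.86, SE 0.26, limma adjusted p = 0.751).

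The gene totals of *Hadhb* and *Ldhb* were lower in infarcted hearts with vehicle. *Hadhb* stood at 773, 671 and 626 TPM in MI vehicle and 856, 892 and 922 TPM in sham vehicle, and *Ldhb* at 791, 731 and 668 and 896, 906 and 956 TPM. In neither gene did the 2 groups overlap. The log2 difference was -0.37 for *Hadhb* (SE 0.11, limma adjusted p = 0.0455) and -0.33 for *Ldhb* (SE 0.10, limma adjusted p = 0.0471). These 2 of the 5 genes were called, both lower, beside 16.0% of all 13158 genes called, 15.1% higher and 0.904% lower, and the median gene was 0.39 higher. Rescaling the libraries by their median ratios brought the median gene to 0.0045, and *Hadhb* and *Ldhb* to -0.83 and -0.79. Both calls were near the threshold: leaving out 1 library at a time, *Hadhb* passed in 2 of 12 fits (without MI vehicle replicate 1 or MI prednisone replicate 3; limma adjusted p from 0.0154 to 0.152 over the 12) and *Ldhb* in 3 (without either of these or MI prednisone replicate 2; 0.0213 to 0.160). Neither passed with the replicate number as a block (limma adjusted p = 0.0709 and 0.0776). Cell-type markers differed in the same contrast. The sum of 6 cardiomyocyte markers was 20924 to 25958 TPM in MI vehicle and 29257 to 30702.5 TPM in sham vehicle, that of 6 fibroblast markers 704 to 870.2 and 326 to 425 TPM, and that of 6 macrophage markers 236 to 361 and 126 to 158 TPM. None of the 18 was at 0 throughout a group, and their part in these totals was not tested.

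*Cd36*, *Lpl* and *Pde4dip* were not called in MI against sham, at log2 differences of -0.12 (95% confidence interval -0.46 to 0.22), -0.11 (-0.36 to 0.15) and -0.20 (-0.48 to 0.09). In sham hearts prednisone gave 0 calls among the 5 totals (0.114% of all genes, 469 of all and 0 of the 5 at an unadjusted p under 0.05). The log2 differences there lay between 0.02 for *Hadhb* and 0.21 for *Lpl*, whose interval was -0.05 to 0.46. *Lpl* stood at 1199, 1243 and 1296 TPM in sham prednisone and 998, 1102 and 1146 TPM in sham vehicle, and these did not overlap.

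The genes whose total followed each of the 5 most closely over the 12 libraries were sought among 8116 genes averaging at least 5 TPM, by Pearson correlation of log2(TPM + 1), as a description. For *Cd36* they were *Pcdh7*, *Taco1* and *Nebl* (r = 0.995, 0.992 and 0.991), and for *Lpl* they were *Kif1c*, *Jph2* and *Srl* (0.990, 0.987 and 0.981). *Nebl* stood at 28.4 TPM in MI prednisone and 85.7 TPM in the other 9, and *Jph2* at 80.5 and 115 TPM. For *Hadhb* they were *Hfe2*, *Pfkm* and *Efcab2* (0.966, 0.965 and 0.965), for *Ldhb* *Tnni3*, *Cox7a1* and *Mrpl42* (0.981, 0.969 and 0.966), and for *Pde4dip* *Sgca*, *Ndrg2* and *Gstm7* (0.916, 0.907 and 0.865). The points share the same 12 libraries, the MI prednisone ones included. Between the 5 genes, *Cd36* and *Lpl* had r = 0.917, and *Cd36* and *Ldhb* had r = -0.37.

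The other genes of these pathways were read from 4 lists. In MI against sham with vehicle, 7 of 18 genes of mitochondrial fatty acid oxidation fell and 0 rose, with a list median of -0.33 beside 0.39 over all genes. The 3 with the largest differences were *Acaa2*, the medium-chain thiolase (344 ± 34.9 against 528 ± 17.4 TPM; SD, n = 3; log2 difference -0.62, SE 0.11, limma adjusted p = 0.0108), *Hadh*, a hydroxyacyl-CoA dehydrogenase (-0.41), and *Eci1*, an enoyl-CoA isomerase (-0.39). *Hadha*, the alpha subunit that partners *Hadhb* and is named for that reason, fell too (log2 difference -0.37, SE 0.08, limma adjusted p = 0.0206). These calls depended on single libraries. The list had 0 calls without sham vehicle replicate 1 or 3, 1 without sham vehicle replicate 2, 2 and 3 without MI vehicle replicates 2 and 3, and 12 without MI vehicle replicate 1. *Acaa2* was called in 10 of the 12 fits that leave out 1 library, and *Hadh* and *Eci1* in 7. The cardiomyocyte, fibroblast and macrophage sums given for *Hadhb* differ in this comparison too, and their part in the list was not tested.

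Of all genes, 15.1% were called higher and 0.904% lower in the same comparison. Of the 15 genes of lactate and pyruvate use, 1 rose and 0 fell. It was *Slc16a3*, a lactate transporter, at 4.12 against 1.31 TPM (log2 difference 1.09, SE 0.31, limma adjusted p = 0.0393), a gene below the 5 TPM set for naming and after median-ratio rescaling part of a list with 0 higher and 1 lower. None of the 13 measured genes of lipoprotein lipase handling and fatty acid uptake passed (list of 15; median 0.21), while 2 were called lower after rescaling. The list of 15 cAMP phosphodiesterases, protein kinase A subunits and anchors, and partners of *Pde4dip* is called the cAMP list below. It had a median of 0.083, beside 0.39 over all genes. Of these 15, 4 rose and 0 fell, and after rescaling 0 were higher and 1 was lower. They were led by *Prkar1a*, a regulatory subunit of protein kinase A (log2 difference 0.85, SE 0.16, limma adjusted p = 0.0126), with *Mapre1* and *Pde4b* at 0.67 and 0.49, and all 3 lost the call after rescaling. Leaving out 1 library, they were called in 10, 3 and 1 of 12 fits. In sham hearts, prednisone gave 0 calls in all 4 lists.

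Beside infarcted hearts with vehicle, those with prednisone had lower totals for 10 of the 15 genes of the cAMP list and 0 higher. Of all genes 37.4% were called, 34.9% lower and 2.50% higher. The list median was -0.77 against -0.41 over all genes, and after rescaling 2 were higher and 6 lower. *Akap13*, a kinase anchor, was lower by the most (log2 difference -1.74, SE 0.23, limma adjusted p = 0.000867), followed by *Prkar2a* (-1.31) and *Prkar1a* (-1.09). For uptake 5 of 13 fell and 0 rose (2 higher and 1 lower after rescaling), led by *Ppara*, a receptor that switches on fatty acid genes (-1.53), *Vldlr* (-0.90) and *Acsl1* (-0.79), of which *Vldlr* and *Acsl1* lost the call after rescaling. For fatty acid oxidation 4 of 18 fell and 0 rose, which became 4 higher and 1 lower after rescaling, and for lactate and pyruvate 5 of 15 fell and 1 rose, which became 4 higher and 0 lower. The median of the uptake list was -0.41, as over all genes. Those of the oxidation and the lactate and pyruvate lists, at -0.11 and -0.30, were less low than the median gene.

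Against sham hearts with prednisone, infarcted hearts with prednisone had lower totals for 12 of 18 oxidation genes, 7 of 15 lactate and pyruvate genes, 3 of 13 uptake genes and 9 of 15 genes of the cAMP list, and 0 higher in each list. Of all genes 16.8% were called, 14.1% lower and 2.73% higher. In the order of the lists just given, the medians were -0.37, -0.41, -0.04 and -0.53, beside -0.06 over all genes. After rescaling 2 uptake genes were called higher and 3 lower, and the other 3 lists had 3, 2 and 8 lower and 0 higher. *Acadm*, the medium-chain acyl-CoA dehydrogenase, led the oxidation genes (log2 difference -0.96, SE 0.14, limma adjusted p = 0.00202), followed by *Etfdh* (-0.78) and *Cpt1a* (-0.63). Leaving out 1 library, *Acadm* and *Etfdh* were called in 12 of 12 fits and *Cpt1a* in 2, with limma adjusted p up to 0.150. *Pdk4*, *Pdk1* and *Pdhx* led the lactate and pyruvate genes, at -1.26, -0.78 and -0.72, of which *Pdk4* and *Pdhx* lost the call after rescaling and were called in 5 and 9 of the 12 fits. These totals sum all transcripts of a gene, and the displacement toward the 3′ end was measured in the same libraries. Its part in them was not tested.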

How the data were processed

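The authors deposited 1 table of TPM per transcript and library; the submitters' processing notes name Trimmomatic, HISAT2, kallisto and the mm10 build without giving their roles, and versions are not given in the sources used here. TPM holds no read depth, so precision rests on 3 mice per group. Transcript lengths, exons, biotypes and sequences came from GENCODE M21 (GRCm38, the assembly of mm10), whose identifiers matched 94.7% of rows.

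Transcripts and summed genes that reached 1 TPM in 3 or more of the 12 libraries were transformed to log2(TPM + 1), and shares (genes of at least 5 TPM in every library, transcripts averaging at least 1%) were fitted as percent. limma 3.58.1 in R 4.3.3, checked on simulated data, used 4 group means, a shared spread with trend, and Benjamini-Hochberg adjustment over the whole table per contrast, with calls at 0.05. The titles give groups and replicate numbers of different mice.

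The members and lists were chosen with earlier results of these data known. Transcripts averaging at least 5% of a gene in any group were described, and from each list up to 3 called genes with the largest log2 difference and a mean of at least 5 TPM were named. Position, full-length sums and length weighting were added after seeing the data.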

Additional observations from a re-analysis of the deposited data

How the results depend on the processing

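The 2 calls among gene totals in MI against sham with vehicle became 1 after median-ratio rescaling and 0 without the filter on low values, without the trend, with the replicate block, or with only the 2 groups fitted; leaving out 1 library at a time gave 0 to 2. The cause was not tested. No share passed under any alternative, and transcript levels gave 0 to 1 call for MI (Ldhb-201, lower without MI vehicle replicate 1). Listed pathway genes called in MI against sham with vehicle, 12 in all, became 6 with the replicate block and 0 to 19 on leaving out 1 library (19 without MI vehicle replicate 1, and 0 without sham vehicle replicate 1 or 3). In MI prednisone against sham prednisone the 31 became 18 after rescaling and 19 to 38, and against MI vehicle the 25 became 18 to 27. *Etfdh*, at -0.40 in MI prednisone against MI vehicle, became 0.0668 after rescaling, which moved the median gene from -0.41 to -0.02. Deviations of same-numbered libraries from their group means had r between -0.58 and 0.14 over genes. The main fits used no pairing by number, and these values cannot exclude a cage, litter or preparation shared by number.

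The share differences of the 10 transcripts kept their sign under every alternative run. Weighting by length, in percentage points, gave 1.26 for Cd36-203, -8.23 for Cd36-205, 9.84 for Lpl-201, -9.86 for Lpl-203, 9.14 for Hadhb-208, -2.40 for Hadhb-201, 11.8 for Ldhb-202, -13.1 for Ldhb-201, 7.39 for Pde4dip-208 and -1.77 for Pde4dip-209, as the weights themselves reduce short rows. Medians gave 20.2 for Lpl-201 and -20.2 for Lpl-203, MI vehicle alone as reference 16.4 and -16.4, and sham prednisone alone 24.3 and -24.2, with -27.4 for Cd36-205. Leaving out 1 library gave 7.73 to 13.6 for Cd36-203, -26.1 to -23.5 for Cd36-205, 17.99 to 20.02 for Lpl-201, -20.04 to -18.00 for Lpl-203, 23.7 to 32.8 for Hadhb-208, -15.6 to -13.9 for Hadhb-201, 24.2 to 30.6 for Ldhb-202, -30.7 to -25.1 for Ldhb-201, 43.5 to 65.0 for Pde4dip-208 and -28.5 to -21.6 for Pde4dip-209. Depth is unknown, so values near 0 TPM carry no detection limit.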
